A study of Mus musculus with 23 samples.

Results

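Pieces of IL-27 vector tumours held ex vivo with an antibody to PD-L1 were compared with pieces of IL-27 vector tumours held in media. The comparison rests on 4 of the 23 libraries of the study, 2 per side, which were chosen by their vector and ex vivo labels alone. The tumours came from male C57BL/6 mice, 8 to 10 weeks old, that carried flank tumours of TC2Ras, a single line of TRAMP-C2 mouse prostate adenocarcinoma cells transduced with an activated H-ras. All 4 libraries share the in vivo treatment, a plasmid encoding IL-27 joined to the short peptide pepL (pTSTA-IL27pepL), given at 10 µg per muscle to the tibialis anterior of the leg with ultrasound and microbubbles. The plasmid was thus delivered to leg muscle and not to the tumour, in hosts with an intact immune system. The anti-PD-L1 group received the antibody ex vivo and the media group received no agent. The sources used here do not give the antibody clone, its dose or the hours of exposure. For comparison, values are also given for the empty vector (pTSTA-ctrl) tumours held with anti-PD-L1 or in media (2 libraries each) and the 7 IL-27 vector libraries held with cabozantinib, docetaxel, IL-27, or cabozantinib plus IL-27. Whether replicate libraries came from separate animals is not stated. The p-values therefore reflect the variation among these libraries alone, and that variation may be technical.

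PD-L1, encoded by Cd274, is a ligand on tumour and myeloid cells that binds PD-1 on T cells and restrains their activity. Antibodies to PD-L1 block that contact and can release T-cell killing and interferon-gamma secretion. Interferon-gamma in turn induces antigen presentation genes, the chemokines Cxcl9 and Cxcl10, and Cd274 itself, while IL-27, a cytokine made of the Il27 and Ebi3 chains, signals through receptors that include the Il27ra chain.

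Levels are given as CPM, counts scaled to library size with the trimmed mean of M values, and differences as log2 of anti-PD-L1 over media ± SE from the edgeR quasi-likelihood fit. A gene was called when its Benjamini-Hochberg adjusted p over all 24440 genes tested was under 0.05. The 2 anti-PD-L1 libraries held 75075494 and 70918758 counts and the 2 media libraries 65846816 and 68415610. Log levels correlated at 0.988 between the anti-PD-L1 libraries and at 0.962 between the media libraries, a description across genes.

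The media libraries stood apart from the rest of the IL-27 vector libraries in ways the labels do not explain. Ngp, a neutrophil granule protein, was at 0 CPM in both anti-PD-L1 libraries, against 18.8 and 16.7 CPM in the media libraries, and it was at 0 in all 7 libraries with other agents. The other libraries with Ngp were empty vector anti-PD-L1 replicate 2 and both empty vector cabozantinib plus IL-27 libraries, so 5 of 23 libraries had at least 14.1 CPM and the other 18 at most 0.118 CPM. Media replicate 1 was poor in GC-rich transcripts, and media replicate 2 was rich in interferon-induced, cytotoxic and complement transcripts. Anti-PD-L1 replicate 1 held 766 CPM of keratinocyte transcripts and anti-PD-L1 replicate 2 held 446 CPM of erythroid transcripts. IL-27 vector libraries with other agents reached 4385 CPM and 1576 CPM of these, so neither level was particular to anti-PD-L1. Because both media libraries and neither anti-PD-L1 library carried Ngp, whatever sets the Ngp libraries apart and the antibody cannot be told apart in this comparison. Skeletal muscle transcripts summed to 975 and 796 CPM with anti-PD-L1, against 713 and 576 CPM in media, though the samples are labelled tumour. Among empty vector libraries the 3 with Ngp held 484 to 564 CPM of muscle transcripts, anti-PD-L1 replicate 2 among them with 528.5 CPM, and the others 1.27 to 18.4 CPM. Of the epithelial markers, Epcam was at 3.34 and 0 CPM with anti-PD-L1 and at 0.401 and 0 CPM in media, so it was absent from a library on each side. The 14 epithelial markers together summed to 4742 and 5415 CPM with anti-PD-L1, against 2862 and 5199 CPM in media. In bulk tissue, fewer cells of a type and less RNA per cell cannot be told apart.

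The promoter windows shown are for 2 groups of genes, Jun and Nr4a1 from the called immediate early genes, and Igtp, Irgm2, Cxcl10 and Irf1 from the interferon-induced genes that were high in media replicate 2. They were chosen after the values were seen. Each runs from 250 bases before to 50 bases after the start annotated by RefSeq in GRCm38.p6, printed 5′ to 3′ on the gene's strand. In the first pair, capitals mark a CRE (TGACGTCA), an AP-1 element (TGANTCA) or a GC box (GGGCGG) on either strand. Only GC boxes were present, on the reverse strand. Jun at chr4:95052173-95052472, minus strand, held 1, and Nr4a1 at chr15:101266596-101266895, plus strand, held 3.
Jun: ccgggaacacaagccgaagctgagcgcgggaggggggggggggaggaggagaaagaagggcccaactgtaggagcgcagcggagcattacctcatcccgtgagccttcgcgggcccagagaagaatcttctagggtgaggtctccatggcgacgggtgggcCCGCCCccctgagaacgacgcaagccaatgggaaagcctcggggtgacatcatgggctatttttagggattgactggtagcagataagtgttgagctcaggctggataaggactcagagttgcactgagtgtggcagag
Nr4a1: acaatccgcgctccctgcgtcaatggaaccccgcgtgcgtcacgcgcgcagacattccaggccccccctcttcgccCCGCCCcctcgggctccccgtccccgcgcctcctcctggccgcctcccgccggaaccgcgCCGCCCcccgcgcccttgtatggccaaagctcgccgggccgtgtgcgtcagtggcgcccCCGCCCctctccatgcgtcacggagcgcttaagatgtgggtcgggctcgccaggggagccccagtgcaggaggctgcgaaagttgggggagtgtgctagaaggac
In the next set, capitals mark an ISRE (GAAA, any 2 bases, GAAA) or a GAS element (TTCNNNGAA), elements known from interferon-induced promoters, on either strand. Igtp lies at chr11:58199306-58199605 and Irgm2 at chr11:58214727-58215026, both on the plus strand, and each window held a GAS match followed closely by an ISRE match. Cxcl10 at chr5:92348840-92349139, minus strand, held an ISRE match, and Irf1 at chr11:53769764-53770063, plus strand, held a GAS match.
Igtp: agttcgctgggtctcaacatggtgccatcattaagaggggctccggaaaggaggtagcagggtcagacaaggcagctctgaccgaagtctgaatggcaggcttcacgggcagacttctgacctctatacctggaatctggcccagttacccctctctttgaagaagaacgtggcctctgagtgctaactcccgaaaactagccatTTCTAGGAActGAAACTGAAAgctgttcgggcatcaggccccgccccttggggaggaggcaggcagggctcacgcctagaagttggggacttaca
Irgm2: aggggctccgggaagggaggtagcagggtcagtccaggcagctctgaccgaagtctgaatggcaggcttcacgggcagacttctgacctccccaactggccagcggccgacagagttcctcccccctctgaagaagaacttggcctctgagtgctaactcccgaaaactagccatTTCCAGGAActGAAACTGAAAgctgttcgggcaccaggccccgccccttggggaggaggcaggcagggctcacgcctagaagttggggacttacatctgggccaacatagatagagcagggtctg
Cxcl10: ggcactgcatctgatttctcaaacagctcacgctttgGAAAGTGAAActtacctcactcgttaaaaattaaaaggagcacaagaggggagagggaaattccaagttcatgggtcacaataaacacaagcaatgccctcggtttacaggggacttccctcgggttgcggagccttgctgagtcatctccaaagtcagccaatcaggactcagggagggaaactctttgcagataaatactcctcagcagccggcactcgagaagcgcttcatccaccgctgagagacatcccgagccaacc
Irf1: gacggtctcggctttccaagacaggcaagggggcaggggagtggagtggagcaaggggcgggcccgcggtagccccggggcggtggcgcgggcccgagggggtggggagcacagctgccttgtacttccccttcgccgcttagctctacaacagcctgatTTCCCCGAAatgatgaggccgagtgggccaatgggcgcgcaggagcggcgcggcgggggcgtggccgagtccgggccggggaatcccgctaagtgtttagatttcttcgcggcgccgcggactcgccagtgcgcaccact
Among 27025 promoter windows of this length, 1.85% held the CRE, 7.89% the AP-1 element, 36% the GC box, 3.5% the ISRE and 8.35% the GAS element. Of the 19 immediate early genes with a window, 17 (89.5%) held a GC box, against 56.1% of the tested genes with a window and 74.5% of those called higher, 2 held a CRE and 0 the AP-1 element. Of the 14 interferon-gamma list genes with a window, 11 (78.6%) held an ISRE and 8 (57.1%) a GAS element, and of 19 type I interferon list genes 11 (57.9%) held an ISRE. A match to these letters is a description and not a bound site.

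With anti-PD-L1, 211 genes rose and 1 fell relative to media, or 0.863% and 0.00409% of the genes tested (0.867% in all). At an unadjusted p under 0.05 there were 2521 genes (10.3%). The 211 increases lay between 1.07 and 9.20 on the log2 scale with a median of 2.37, against a median of -0.04 over all genes. The levels in both anti-PD-L1 libraries were above both media libraries for all 211, a pattern shown by 18.5% of all genes tested, while 19.4% of genes lay below in both. The count depended on single libraries. It was 0 without anti-PD-L1 replicate 1, 2 without anti-PD-L1 replicate 2, and 716 without media replicate 2, 175 of the 211 increases among them. It was 21 without media replicate 1, with Fap and 0 of the 211 increases among them (0.037% of genes fell), in a fit that takes the lone media library to vary like the other groups. Of the 211, 209 were protein coding and 188 averaged at least 5 CPM over the 4 libraries.

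The gene with the smallest p was Sf3b4 (ENSMUSG00000068856, chromosome 3, 96172332 to 96177564, GRCm38), a subunit of the splicing factor SF3b. Sf3b4 was at 185 and 177 CPM with anti-PD-L1, against 29.1 and 45.7 CPM in media. The groups did not overlap and the log2 difference was 2.27 ± 0.33 (edgeR adjusted p = 0.0239). Srsf4, another splicing factor, was at 75.3 and 75.7 CPM with anti-PD-L1 and 8.13 and 20.6 CPM in media. Cad, the enzyme that begins pyrimidine synthesis, was at 134 and 140 CPM with anti-PD-L1 and 28.8 and 49.5 CPM in media. Ppard, a lipid-sensing nuclear receptor, was at 157 and 156 CPM with anti-PD-L1 and 16.1 and 37.4 CPM in media. In each of these the anti-PD-L1 libraries lay close together and media replicate 1 was the lowest. The other 6 of the 10 calls with the smallest p among genes averaging at least 5 CPM were Pcnx3, the histone gene Hist1h2bc, Crocc (rootletin, of the ciliary rootlet), Smtn (smoothelin, of smooth muscle), the semaphorin Sema6b and Gtse1, which acts in G2 and mitosis. Their log2 differences ran from 2.07 for Gtse1 to 4.44 for Crocc, and all 10 shared the same edgeR adjusted p of 0.0239.

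The called genes were rich in G and C. Their transcripts had a median GC content of 58.9%, against 49.0% for all genes tested, and 207 of the 210 with a known value were above that overall median. The highest decile of genes by GC content held 154 of them. Across deciles of GC content the median log2 difference of all genes climbed from -0.41 in the lowest to 1.04 in the highest. Without media replicate 1 the highest decile had a median of 0.90 and without media replicate 2 it had 1.78. The share of all CPM that came from the highest GC decile was 6.83% and 7.07% in the anti-PD-L1 libraries, against 2.12% and 4.14% in media. Over the 7 libraries with other agents it ran from 6.33% to 9.73%, so the media libraries were the low ones. With an offset that removes each library's trend with GC content, no gene was called by edgeR (1931 genes, 7.9%, had an unadjusted p under 0.05), and the smallest adjusted p was 0.0532, shared by Srsf4, Ppard, Hist1h2bc, Fosl1, Junb, Sf3b4 and others. All 211 genes kept a positive difference under the offset, 187 with an unadjusted p under 0.05, and their median was 1.45. They were chosen by their difference in these same libraries, so these values are a description. DESeq2 without the offset called 885 genes higher and 228 lower (3.62% and 0.933%), including all 212.

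**Figure D1:**
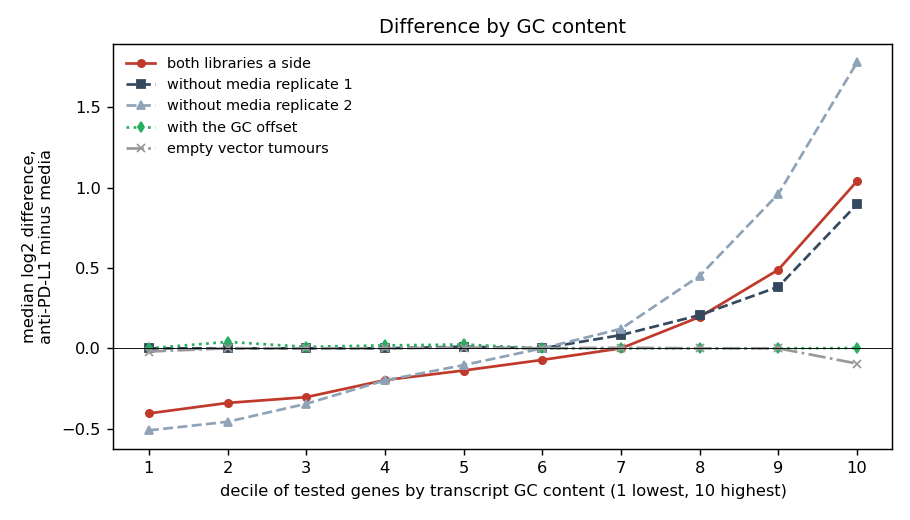
Median log2 difference, anti-PD-L1 minus media, for genes grouped into deciles by the GC content of their transcripts (1 lowest, 10 highest). In IL-27 vector tumours the red line climbs from -0.41 to 1.04, and the highest decile is at 0.90 without media replicate 1 and 1.78 without media replicate 2. The lines with the GC offset and for empty vector tumours stay near 0.

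Across all libraries, the level of the 211 genes followed the same split as Ngp. Their median log2(CPM + 1) was 5.54 and 5.55 in the anti-PD-L1 libraries and 2.91 and 3.66 in the media libraries. The 7 libraries with other agents lay between 5.44 and 5.81, which covers the anti-PD-L1 values and not the media values. The 5 libraries with Ngp, of both vectors, lay between 2.91 and 4.04, and the 18 without it between 4.39 and 5.81. The share of CPM from the highest GC decile, which holds 154 of the 211, split the libraries in the same way. It was 2.12% to 4.64% in the 5 libraries with Ngp and at least 5.02% in the 18 others. The 211 genes were chosen by the contrast with media, so the low media values are a description. The values of the other libraries were not used in choosing them, though those libraries share the fit.

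**Figure D2:**
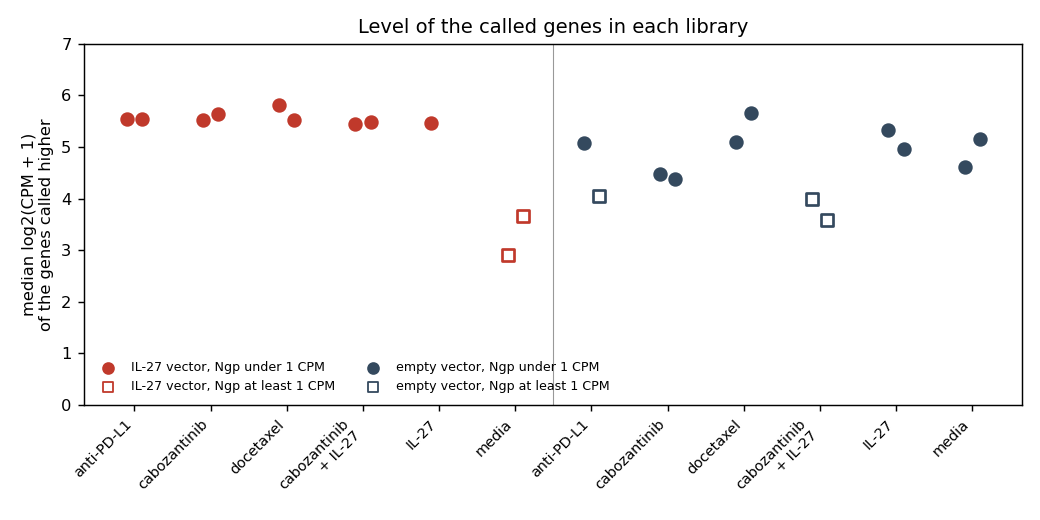
Median log2(CPM + 1) of the 211 genes called higher with anti-PD-L1, 1 point per library, by vector (red IL-27, dark blue empty) and ex vivo condition. Open squares are libraries with at least 1 CPM of Ngp. All 5 open squares lie at or under 4.04 and all 18 filled circles at or over 4.39.

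Genes of the immediate early response, which cells switch on within minutes of a stimulus, formed the largest group of listed genes among the calls. Of 24 members, 7 rose and 0 fell, with a median log2 difference over the 24 of 0.92, against -0.04 over all genes and a called share of 0.863%. Junb (ENSMUSG00000052837) encodes a Jun-family member of AP-1. It was at 47.6 and 104 CPM with anti-PD-L1, against 0.268 and 0.821 CPM in media, a log2 difference of 7.12 ± 1.21 (edgeR adjusted p = 0.0239). The media libraries were close to 0, and Junb was also at 0.769 to 1.13 CPM in the 3 empty vector libraries with Ngp. Fosl1, an AP-1 partner that RAS signalling is known to raise, was at 430 and 435 CPM with anti-PD-L1, against 21.4 and 78.2 CPM in media (3.12 ± 0.53). Ier2 was at 34.8 and 36.1 CPM with anti-PD-L1, against 0.431 and 1.97 CPM in media (4.88 ± 0.87). Jun was at 81 and 131 CPM with anti-PD-L1, against 24.6 and 26.5 CPM in media (2.05 ± 0.43). None of these genes overlapped between the groups. Jund, Ier3 and the orphan nuclear receptor Nr4a1 rose by 3.37, 1.94 and 1.82 (edgeR adjusted p from 0.0379 to 0.048). Jund was named after its values were seen, because it was outside the 6 list members of smallest p. Fos, the founding member of the family, did not pass. It was at 27.8 and 24.6 CPM with anti-PD-L1, against 7.68 and 28.1 CPM in media, so media replicate 2 was as high as the antibody libraries. Without media replicate 2 the list held 6 increases, where 2.93% of all genes rose. Without media replicate 1 it held 0, where 0.0493% of all genes rose, and its median was 0.70. In the libraries with other agents Junb ran from 66.2 to 281 CPM and Fosl1 from 256 to 462 CPM.

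**Figure D3:**
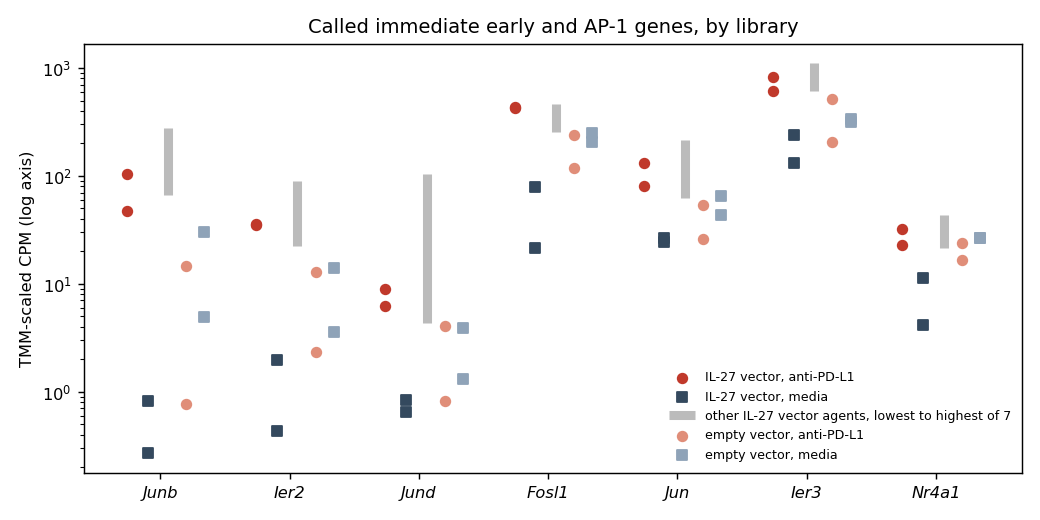
CPM (log axis) of the 7 called immediate early and AP-1 genes in each anti-PD-L1 and media library of both vectors, with a grey bar for the lowest to highest of the 7 IL-27 vector libraries with other agents. Dark symbols are IL-27 vector and pale symbols empty vector tumours, with circles for anti-PD-L1 and squares for media. In IL-27 vector tumours both anti-PD-L1 circles and the grey bar lie above both media squares for each of the 7 genes.

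The lists of stress responses and of hypoxia and glycolysis held 5 calls, all increases. Called genes of metabolism outside these lists, such as Cad, Fasn and Srebf1, are not counted here. Over all genes tested edgeR called 0.863% higher and DESeq2 3.62%, and 7.47% had an unadjusted edgeR p under 0.05 with a positive difference. Of 19 genes of the integrated stress and unfolded protein responses, 3 rose (median 0.46). Trib3, a pseudokinase induced by ATF4, was at 91.2 and 57.9 CPM with anti-PD-L1, against 9.82 and 19.1 CPM in media (2.37 ± 0.44; edgeR adjusted p = 0.0275). Ddit4, an inhibitor of mTORC1, was at 133 and 129 CPM with anti-PD-L1, against 48.8 and 40.7 CPM in media (1.55 ± 0.31). Chac1, which degrades glutathione, was at 31.4 and 19.8 CPM with anti-PD-L1, against 5.47 and 8.38 CPM in media (1.89 ± 0.41). All 3 were separated between the groups, and their differences under the GC offset were 1.46, 0.56 and 1.07. Of 15 heat shock genes, 1 rose. This was Hspa1a, an inducible chaperone whose reads may be shared with its near-identical copy Hspa1b, at 9.60 and 22.2 CPM with anti-PD-L1 and 0.268 and 1.48 CPM in media. The median of the heat shock list was -0.01, with 6 members positive and 9 negative, and 4 had an unadjusted p under 0.05, all positive. DESeq2 called 2 higher. Of 17 hypoxia and glycolysis genes, 1 rose and 14 differed in the positive direction (median 0.46). Slc2a1, the glucose transporter GLUT1, was at 676 and 611 CPM with anti-PD-L1, against 204 and 231 CPM in media (1.56 ± 0.28; edgeR adjusted p = 0.0239). Its groups were far apart, and its difference was 1.61 without media replicate 1 and 1.66 without media replicate 2. Pfkl, a phosphofructokinase, was at 556 and 511 CPM with anti-PD-L1 and at 97.8 and 236 CPM in media without passing (edgeR adjusted p = 0.118).

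Cell cycle genes were mixed. For scale, edgeR called 0.863% of all genes higher and DESeq2 3.62%. Of 17 DNA replication genes, 2 rose (median 0.34). Cdt1, which loads the MCM helicase onto origins, was at 94.3 and 85.2 CPM with anti-PD-L1, against 7.38 and 18.2 CPM in media (2.81 ± 0.54; edgeR adjusted p = 0.0289). Mcm2, a subunit of that helicase, was at 109 and 99.1 CPM with anti-PD-L1, against 32.0 and 53.3 CPM in media (1.29 ± 0.28; edgeR adjusted p = 0.0456). Neither gene overlapped between the groups. Of 18 mitosis and spindle genes edgeR called 0 and DESeq2 called 2 higher (median 0.06), and 3 had an unadjusted p under 0.05 in the positive direction, among them Plk1, a mitotic kinase, at 1.11 ± 0.32. Mki67, a marker of cycling cells, was at 189 and 252 CPM with anti-PD-L1 and at 328 and 140 CPM in media. The media libraries lay on either side of the antibody libraries. Of 14 genes of RAS and MAPK output and feedback, edgeR called 0 and DESeq2 called 3 higher. In edgeR 5 had an unadjusted p under 0.05, all positive, against 7.47% of all genes in that direction, and with the GC offset 0 did so in the positive and 1 in the negative direction. Myc was at 67.0 and 76.7 CPM with anti-PD-L1, against 23.6 and 47.8 CPM in media (1.01 ± 0.34; edgeR adjusted p = 0.202).

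Interferon-induced genes were lower with anti-PD-L1 than in media on average, and the difference rested on media replicate 2. None was called by edgeR with its filter on low counts, whereas with no filter it called 18 of the 23 interferon-gamma-induced genes lower, where it called 1.18% of all genes lower. Of 23 interferon-gamma-induced genes, 21 had a negative difference and 16 an unadjusted p under 0.05, against 2.85% of all genes in that direction. Their median log2 difference was -3.82, or -3.41 with the 2 members at 0 in both libraries of a group set to the bound from 3 counts per library. Summed, they held 50.1 and 126 CPM with anti-PD-L1, against 95.6 and 1112 CPM in media. Media replicate 1 thus lay between the antibody libraries and media replicate 2 stood far above all others. Without media replicate 2 the median was -0.11 and without media replicate 1 it was -4.61. Cxcl9, a chemokine that draws T cells through CXCR3, was at 0.258 and 0.834 CPM with anti-PD-L1, against 1.49 and 46.1 CPM in media (-5.44 ± 1.47; edgeR adjusted p = 0.0956). Gbp4, a guanylate-binding GTPase of cell defence, was at 0.232 and 0.471 CPM with anti-PD-L1, against 0.877 and 24.2 CPM in media (-5.15 ± 1.33; edgeR adjusted p = 0.0812). For both genes the media libraries were above the antibody libraries, by a small margin in replicate 1. Igtp and Irgm2, interferon-induced GTPases whose windows are printed above, were at 1.70 and 4.16 CPM and at 0.361 and 3.17 CPM with anti-PD-L1. In media, Igtp was at 3.69 and 79.2 CPM and Irgm2 at 3.45 and 53.2 CPM. Their annotated gene bodies overlap on the same strand, so reads may be shared between them. DESeq2 called 14 of the 23 members lower and 0 higher, where it called 0.933% of all genes lower.

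Type I interferon-stimulated genes had the same shape. Of 26 members, edgeR called 0, 25 were negative and 20 had an unadjusted p under 0.05, with a median of -2.70. DESeq2 called 6 of them lower, and edgeR with no filter on low counts called 23 lower. Their sum was 130 and 287 CPM with anti-PD-L1, against 219 and 1848 CPM in media, and the median was 0.01 without media replicate 2. Mx1, an antiviral GTPase, was at 0.71 and 1.12 CPM with anti-PD-L1, against 2.17 and 26.4 CPM in media. Zbp1, a sensor of Z-form nucleic acid, was at 1.45 and 4.26 CPM with anti-PD-L1, against 3.43 and 82.2 CPM in media. The cytotoxic, complement and macrophage lists were also highest in media replicate 2, and their part in the interferon values was not tested. Among the 7 libraries with other agents the summed type I level ran from 126 to 1162 CPM, so a spread of this kind was also present outside the media group. Irf1, an interferon-induced transcription factor, was at 14.9 and 34.7 CPM with anti-PD-L1, against 18.3 and 67.0 CPM in media (-0.78 ± 0.56; edgeR adjusted p = 0.741). The groups overlapped, since media replicate 1 lay between the antibody libraries.

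Cd274 itself (ENSMUSG00000016496, chromosome 19), the transcript of the antibody's target, was at 11.6 and 28.04 CPM with anti-PD-L1, against 20.7 and 95.2 CPM in media (-1.55 ± 0.79; edgeR adjusted p = 0.545). The groups overlapped, and without media replicate 2 the difference was -0.06. The antibody binds the protein, so the transcript does not check the labels. Of the 29 checkpoint ligands and receptors, edgeR called 0, DESeq2 called 1 lower, edgeR with no filter called 4 lower, and 25 had a negative difference (median -0.90, and -0.63 without media replicate 2). Summed, they held 632 and 701 CPM with anti-PD-L1, against 825 and 1163 CPM in media. Pdcd1lg2, encoding the second PD-1 ligand PD-L2, was at 0 and 0.269 CPM with anti-PD-L1 and at 0.238 and 3.63 CPM in media, and Pdcd1, encoding PD-1, was at 0 and 0.108 CPM with anti-PD-L1 and at 0.238 and 0.777 CPM in media. Pdcd1 was at 0 counts and 8 counts in the anti-PD-L1 libraries, against 16 and 52 counts in the media libraries. Cd47, the signal that restrains phagocytosis, was at 145 and 136 CPM with anti-PD-L1, against 231 and 209 CPM in media (-0.65 ± 0.22; edgeR adjusted p = 0.21). Cd80 and Cd86, ligands of CD28 and CTLA-4, differed by -2.92 ± 1.26 and -2.10 ± 0.80 without passing. Nectin2, a ligand of DNAM-1 and TIGIT, went the other way at 1.29 ± 0.49 (edgeR adjusted p = 0.296). Of the 18 genes that induce or stabilise PD-L1, edgeR and DESeq2 called 0, edgeR with no filter called 1 lower and the median was -0.28.

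T-cell and cytotoxic transcripts were scarce in 3 of the 4 libraries. Summed over 22 T-cell markers, they held 7.12 and 10.8 CPM with anti-PD-L1, against 8.59 and 37.6 CPM in media. Cd3e was at 0.0516 and 0.161 CPM with anti-PD-L1 and at 0.0743 and 0.284 CPM in media, and Cd8a was at 0 in both anti-PD-L1 libraries and in media replicate 1 and at 0.493 CPM in media replicate 2. Cd4 was at 0.232 and 0.161 CPM with anti-PD-L1 and at 0.624 and 0.553 CPM in media. Of the 22 markers edgeR called 0 and DESeq2 called 1 lower (median -1.47, and 0.59 without media replicate 2). The 20 listed cytotoxic genes summed to 13.1 and 13.4 CPM with anti-PD-L1, against 9.23 and 117 CPM in media. Of the 19 tested edgeR called 0 and DESeq2 called 2 lower. With no filter on low counts edgeR called 2 T-cell markers and 6 cytotoxic genes lower, where it called 1.18% of all genes lower. Gzmb, the cytotoxic protease granzyme B, was at 1.01 and 1.36 CPM with anti-PD-L1, against 0.535 and 45.6 CPM in media (-4.29 ± 1.67; edgeR adjusted p = 0.319). Without media replicate 2 its difference was 1.14. Prf1, the pore-forming perforin, was at 0.168 and 0.296 CPM with anti-PD-L1, against 0.178 and 8.50 CPM in media. Media replicate 1 lay below both antibody libraries for Gzmb and between them for Prf1. Ifng was at 0 in every library of the comparison except media replicate 2, where it was at 0.657 CPM. T-cell components of the tumours were the stated interest of the sequencing, and in these 4 libraries the highest summed T-cell and cytotoxic levels were those of media replicate 2.

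Among myeloid and complement genes edgeR with its filter called none, and DESeq2 called 5 of the 18 Fc receptor and complement genes lower. With no filter on low counts edgeR called 10 of these 18 lower, where it called 1.18% of all genes lower. It also called 2 macrophage and monocyte markers lower and 1 higher in that setting. The 18 Fc receptor and complement genes had a median of -1.87 (0.03 without media replicate 2) and summed to 191 and 252 CPM with anti-PD-L1, against 225 and 1789 CPM in media. C3, the central complement protein, was at 4.45 and 23.7 CPM with anti-PD-L1 and at 8.22 and 416 CPM in media. Cfb, the factor B protease, was at 3.55 and 12.8 CPM with anti-PD-L1 and at 8.13 and 460 CPM in media. Again the high value was media replicate 2 alone. Macrophage and monocyte markers, 20 in all, summed to 1028 and 1018 CPM with anti-PD-L1, against 1277 and 1864 CPM in media, with a median of -0.87 and 1 DESeq2 call, lower. Adgre1, encoding F4/80, was at 8.22 and 10.0 CPM with anti-PD-L1 and at 12.2 and 35.5 CPM in media (-1.39 ± 0.71; edgeR adjusted p = 0.549). Among inflammatory cytokines, Il6 was at 0.271 and 2.96 CPM with anti-PD-L1 and at 2.72 and 125 CPM in media, and Il1b at 2.74 and 4.28 CPM with anti-PD-L1 and at 5.33 and 59.4 CPM in media. The NF-kB subunit genes Rela and Nfkb2 lay the other way, at 0.98 ± 0.39 and 1.00 ± 0.38, and under the GC offset they were at -0.02 and -0.07.

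Neutrophil granule transcripts were present in both media libraries and scarce or at 0 with anti-PD-L1, with 0 markers called by edgeR in the fit of all libraries and 3 called lower by DESeq2. In the edgeR fit of the 11 IL-27 vector libraries 3 were called lower, where 0.0309% of all genes were, and with no filter on low counts 8 were. All 17 neutrophil markers had a negative difference, with a median of -3.32, which was -3.20 without media replicate 1 and -3.26 without media replicate 2. With the 6 members at 0 in a group set to their bounds the median was -3.002. Besides Ngp, Ltf (lactoferrin) was at 0 in both anti-PD-L1 libraries and at 13.5 and 10.8 CPM in media. Cd177, a neutrophil surface protein, was at 0 with anti-PD-L1 and at 2.75 and 2.57 CPM in media. Mpo, myeloperoxidase, was at 0 with anti-PD-L1 and at 1.23 and 1.57 CPM in media. Summed, the 17 markers held 25.7 and 18.5 CPM with anti-PD-L1, against 77.5 and 130 CPM in media, and 5.65 to 325 CPM in the libraries with other agents. Against a floor of 3 counts per library, Ngp was at least 450-fold lower with anti-PD-L1, Ltf at least 307-fold, Cd177 at least 67.2-fold and Mpo at least 35.4-fold. None was called, with edgeR adjusted p from 0.11 for Ngp to 0.249 for Mpo. The alarmin S100a8 was less distinct, at 2.58 and 0.121 CPM with anti-PD-L1 and 4.92 and 5.45 CPM in media. S100a8 is named after its values were seen.

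The 1 gene that fell was Fap (ENSMUSG00000000392, chromosome 2), fibroblast activation protein, a surface protease of stromal fibroblasts. Fap was at 0.594 and 0.619 CPM with anti-PD-L1, against 2.18 and 9.34 CPM in media (-3.24 ± 0.70; edgeR adjusted p = 0.0422). The groups did not overlap. The call was lost without media replicate 2 (-1.85) and with the GC offset (-2.94; edgeR adjusted p = 0.147). It was also lost with replicate number as a block, in the 4 libraries alone and in the 11 IL-27 vector libraries. Leaving out either anti-PD-L1 library, empty vector media replicate 2, or any IL-27 vector library with cabozantinib, with or without IL-27, lost it too. DESeq2 and the other scalings and filters kept it. Of the 18 fibroblast and extracellular matrix genes, 16 had a negative difference (median -1.12, and 0.16 without media replicate 2). In that direction 8 had an unadjusted p under 0.05 in edgeR, against 2.85% of all genes. DESeq2 called 4 of the 18 lower, where it called 0.933% of all genes lower. With no filter on low counts edgeR called 9 lower, where it called 1.18% of all genes lower. Dcn, the proteoglycan decorin, was at 763 and 770 CPM with anti-PD-L1, against 1259 and 2215 CPM in media (-1.18 ± 0.30; edgeR adjusted p = 0.0765). Postn, periostin, was at 144 and 269 CPM with anti-PD-L1, against 387 and 859 CPM in media (-1.59 ± 0.50; edgeR adjusted p = 0.164). Both were separated between the groups. Col3a1, a fibrillar collagen, was at 181 and 703 CPM with anti-PD-L1 and at 285 and 3660 CPM in media and overlapped. The remaining genes with the smallest unadjusted p in this direction were Apod, Ctsk, Lum, C2 and Herc6. Apod, apolipoprotein D, was at 3.65 and 4.86 CPM with anti-PD-L1 and at 43.1 and 104 CPM in media (-4.11 ± 1.01; edgeR adjusted p = 0.0666). Lum, the proteoglycan lumican, was at 26.5 and 32.2 CPM with anti-PD-L1 and at 63.3 and 97.8 CPM in media (-1.46 ± 0.37; edgeR adjusted p = 0.0731). Both media libraries were above both antibody libraries for Apod, Ctsk, Lum, C2 and Herc6 alike.

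Endothelial transcripts were low in media replicate 2. The 15 endothelial and pericyte markers summed to 226 and 275 CPM with anti-PD-L1, against 361 and 50.5 CPM in media. Of these, edgeR called 0 and DESeq2 called 3 higher, and edgeR called 1 higher without media replicate 1. Over all genes tested DESeq2 called 3.62% higher. The median of the 15 markers was 0.57, with 2.76 without media replicate 1 and -0.18 without media replicate 2. Tie1, an endothelial receptor of the angiopoietin pathway, was at 6.996 and 11.2 CPM with anti-PD-L1, against 2.57 and 0.583 CPM in media (2.53 ± 0.74; edgeR adjusted p = 0.127). Robo4, an endothelial guidance receptor, was at 8.17 and 10.4 CPM with anti-PD-L1 and at 2.75 and 0.239 CPM in media. The antibody libraries were above both media libraries for these genes.

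Within the 4 libraries, transcripts of skin and blood were high in single anti-PD-L1 libraries. In the 7 IL-27 vector libraries with other agents, keratinocyte markers summed to 8.81 to 4385 CPM and erythroid genes to 55.1 to 1576 CPM. High levels of both were thus also present outside the anti-PD-L1 group. Keratinocyte markers summed to 766 and 8.15 CPM with anti-PD-L1, against 21.3 and 2.05 CPM in media. Of 14 members 1 rose, where 0.863% of all genes did. This was Sprr1b, a cornified envelope protein, at 28.9 and 1.05 CPM with anti-PD-L1 and at 0.149 and 0 CPM in media (7.62 ± 1.36; edgeR adjusted p = 0.025). The value of anti-PD-L1 replicate 1 carried it, and the list median was 4.81, or 3.91 with the 3 members at 0 in a group set to their bounds. Krt14, of basal keratinocytes, was at 204 and 1.08 CPM with anti-PD-L1 and at 2.39 and 0 CPM in media. Among the erythroid genes Hba-a1, an alpha globin with a near-identical copy, was at 5.54 and 112 CPM with anti-PD-L1 and at 3.715 and 5.496 CPM in media. Of 14 skeletal muscle markers edgeR and DESeq2 called 0, all 14 had a positive difference and 11 were above media in both anti-PD-L1 libraries. The share of all genes tested that lay above in this way was 18.5%. The median of the muscle list was 0.44, and 0.04 with the GC offset, and 0 members had an unadjusted p under 0.05 in edgeR. Myh4, a fast myosin, was at 250 and 198 CPM with anti-PD-L1 and at 180 and 143 CPM in media, and Acta1, skeletal actin, at 109 and 87.9 CPM with anti-PD-L1 and at 83.8 and 63.4 CPM in media. The 13 mitochondrially encoded transcripts summed to 32150 and 21460 CPM with anti-PD-L1, against 36820 and 44020 CPM in media, and all 13 had a negative difference (median -0.39, and 0.09 with the GC offset).

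**Figure D4:**
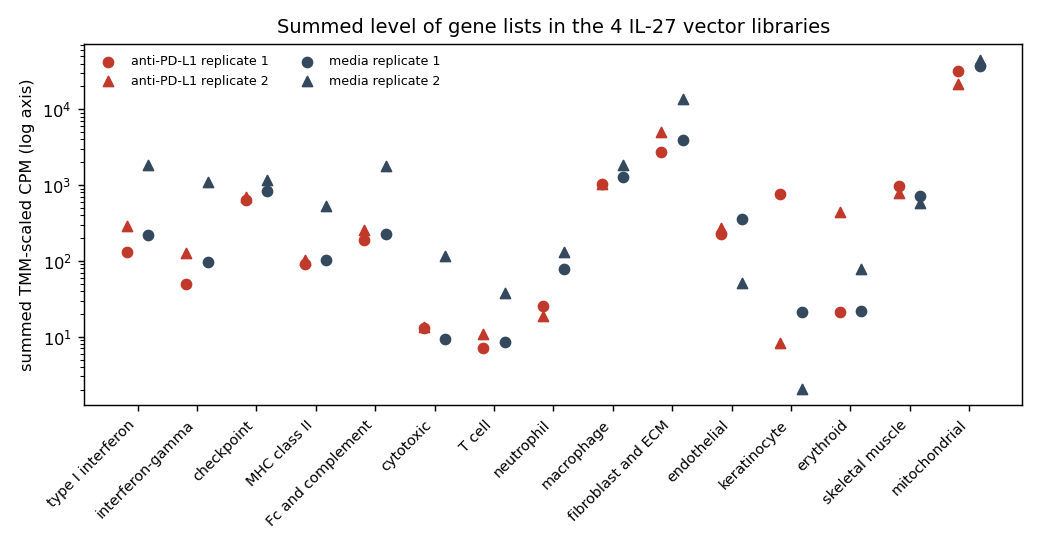
Summed CPM (log axis) of 15 gene lists in the anti-PD-L1 (red) and media (dark) libraries of IL-27 vector tumours, with circles for replicate 1 and triangles for replicate 2. Media replicate 2 stands above the other 3 for the interferon, complement, cytotoxic and T-cell lists and below them for the endothelial and keratinocyte lists. Both media libraries stand above both anti-PD-L1 libraries for the neutrophil list.

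Of 19 MHC class I presentation genes, edgeR and DESeq2 called 0 and 17 had a negative difference (median -0.95, and 0.89 without media replicate 2). With no filter on low counts edgeR called 3 of them lower, where it called 1.18% of all genes lower. B2m, the light chain of every class I molecule, was at 292 and 372 CPM with anti-PD-L1, against 431 and 1251 CPM in media (-1.34 ± 0.49; edgeR adjusted p = 0.265). Nlrc5, the class I transactivator, was at 2.06 and 4.30 CPM with anti-PD-L1 and at 2.38 and 17.8 CPM in media. Of 11 MHC class II genes, edgeR and DESeq2 called 0, with 7 negative and 4 positive (median -0.29, and 0.62 without media replicate 2). Here too edgeR with no filter called 3 lower. H2-Aa was at 2.94 and 4.44 CPM with anti-PD-L1 and at 7.38 and 24.4 CPM in media, and Cd74, the invariant chain, at 10.1 and 16.5 CPM with anti-PD-L1 and at 12.6 and 82.8 CPM in media. For B2m and H2-Aa both media libraries were higher, and for Nlrc5 and Cd74 the groups overlapped.

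Of 12 genes of the IL-27 chains, receptor and pathway, edgeR and DESeq2 called 0, and edgeR with no filter called 1 higher and 1 lower. Il27 was at 0.0516 and 0.175 CPM with anti-PD-L1 and at 0 in both media libraries. Ebi3 was at 0.129 and 0.269 CPM with anti-PD-L1 and at 0.0594 and 0.209 CPM in media. Both chains were at low levels in all 4 libraries. Il27ra, its specific receptor subunit, was at 2.04 and 2.65 CPM with anti-PD-L1 and at 1.65 and 3.09 CPM in media (-0.02 ± 0.61). Socs3, a feedback inhibitor induced by STAT3, was at 35.0 and 61.3 CPM with anti-PD-L1 and at 18.5 and 90.8 CPM in media (-0.18 ± 0.61). For both, the media libraries lay on either side of the antibody libraries.

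**Figure D5:**
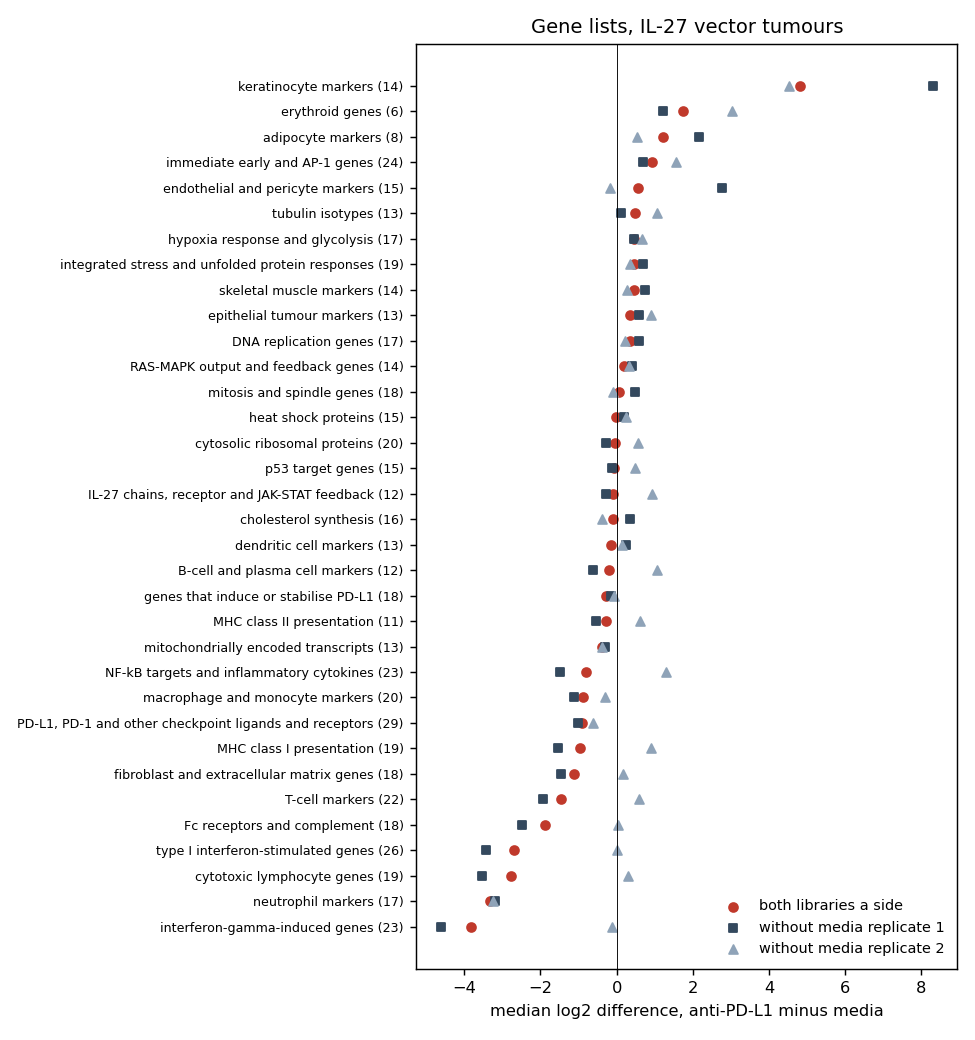
Median log2 difference, anti-PD-L1 minus media, of the 34 gene lists, with the number of members tested in parentheses. Red circles use both libraries a side, dark squares leave out media replicate 1 and light triangles leave out media replicate 2. The interferon, cytotoxic, complement and T-cell lists move to near or above 0 without media replicate 2, the neutrophil list stays near -3.3 in all 3 fits and the immediate early list stays above 0.

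Whether the difference between anti-PD-L1 and media itself depended on the vector was tested as an interaction. No gene was called by edgeR (0% of 24440; 1862 genes, 7.62%, had an unadjusted p under 0.05), while DESeq2 called 459. In empty vector tumours anti-PD-L1 against media gave 0 edgeR calls (344 genes, 1.41%, with an unadjusted p under 0.05) and 29 DESeq2 calls. Of the 211 genes called in IL-27 vector tumours, 31 had a positive difference in empty vector tumours and their median there was -0.21. Sf3b4 was at 113 and 64.8 CPM in empty vector tumours with anti-PD-L1, against 76.2 and 120 CPM in empty vector tumours in media. Junb was at 14.8 and 0.769 CPM with anti-PD-L1 and at 4.95 and 30.4 CPM in media of empty vector tumours. In both genes the lowest anti-PD-L1 value was that of replicate 2, the library with Ngp, and the groups overlapped. Without empty vector anti-PD-L1 replicate 1 the interaction had 173 calls, and without IL-27 vector media replicate 2 it had 341. For Junb the interaction was 8.30 ± 1.49 and for Sf3b4 2.42 ± 0.46, both with an edgeR adjusted p of 0.178.

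Against the mean of the other 4 ex vivo conditions in IL-27 vector tumours, the anti-PD-L1 libraries showed no edgeR call (0% of 24440; 707 genes, 2.89%, had an unadjusted p under 0.05), and DESeq2 called 15. This comparison shares the anti-PD-L1 libraries with the first one but not the media libraries. The 211 genes had a median log2 difference of 0.02 here, 112 of them were positive and 4 had an unadjusted p under 0.05. Sf3b4 ran from 160 to 243 CPM in the 7 libraries with other agents, which covers the anti-PD-L1 values of 185 and 177 CPM. Cd274 ran from 9.22 to 40.4 CPM in those libraries, which covers its anti-PD-L1 values as well. Under anti-PD-L1, IL-27 vector against empty vector tumours also gave 0 edgeR calls (834 genes, 3.41%, with an unadjusted p under 0.05; 38 DESeq2 calls).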

How the data were processed

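RNA from the tumour pieces (RIN of at least 8 per the labels' protocols) was sequenced as stranded poly(A) libraries. The authors deposited estimated counts as whole numbers for 55401 genes in 23 libraries. The submitters' processing notes name cutadapt, HISAT2, StringTie, DESeq2 and build GRCm38. The sources used here give no versions, order or strand setting, so reads of overlapping or near-identical genes may be shared.

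Libraries were scaled by TMM and filtered with filterByExpr. A single edgeR 4.0.16 quasi-likelihood model (R 4.3.3, limma 3.58.1) of the 12 groups gave each contrast. It had 11 residual degrees of freedom, so groups share an estimate of the spread, with Benjamini-Hochberg adjusted p under 0.05. The script was tested on simulated data. Alternatives included DESeq2 1.42.0, other scalings and filters, left-out libraries and an offset for transcript GC content (loess span 0.3, GC known for 99.8% of tested genes).

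Genes were named by rule. Among symbols averaging at least 5 CPM over the 4 libraries, these were the 10 calls of smallest p in each direction. Where fewer than 5 were called, 5 genes by unadjusted p were taken. Up to 6 members of smallest p per list, and fixed genes such as Cd274, were taken with no limit on CPM. Members and lists were chosen with earlier results of these data known. Sequences are from RefSeq. At these depths 1 CPM is 36.2 to 86.5 counts, and floors cover counting error only. The values of 1 gene of the fixed set are not reported here.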

Additional observations from a re-analysis of the deposited data

How the results depend on the processing

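For anti-PD-L1 against media in IL-27 vector tumours, the 212 calls became 1113 with DESeq2, 1423 with no filter on low counts, 436 in a fit of the 11 IL-27 vector libraries alone, and 0 in a fit of the 4 libraries alone or with the GC offset. Leaving out single libraries gave 0 to 716 calls. Outside the comparison, the count was 44 without either IL-27 vector cabozantinib plus IL-27 library, 77 without docetaxel replicate 2, 118 and 119 without cabozantinib replicates 1 and 2, and 328 without the IL-27 library. It was 327 and 326 without empty vector anti-PD-L1 replicates 1 and 2 and 136 without empty vector media replicate 2. It lay between 181 and 298 with RLE size factors, library totals, a filter of 1 CPM, or counts divided by 4. Without the 3 libraries of most positive GC trend it was 301. These were empty vector IL-27 replicate 1, empty vector docetaxel replicate 2 and IL-27 vector cabozantinib replicate 2. Media replicate 1, whose GC trend was the most negative, stayed in that fit. With the GC offset the count was 0 and 3 without anti-PD-L1 replicates 1 and 2, 31 without media replicate 1 and 221 without media replicate 2. This offset combined with left-out libraries, the left-out libraries outside the comparison and the fit without the 3 libraries were added after seeing the data. The test of the difference between vectors, with 0 calls, gave 459 with DESeq2, 1010 with no filter and 0 to 341 with single libraries left out. The contrast with other agents, also 0, gave 15 with DESeq2, 339 with no filter and 0 to 1 with single libraries left out. The cause of these shifts was not tested. With replicate number as a block the first count was 75, all among the 212. The numbers are only shared labels: deviations of same-numbered media and anti-PD-L1 libraries correlated at 0.213, and over 55 group pairs the correlation ran from -0.74 to 0.56. The block left no calls in the other 2 comparisons.

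Of 107 named genes, the 26 called ones kept their sign in all 30 alternatives. Every called gene was separated between the groups, so leaving out a single library could hardly reverse its sign. The kept signs are therefore a description. Of the 81 not called, 18 changed sign without media replicate 2, 5 with the GC offset, 5 without anti-PD-L1 replicate 1, and 1 each without media replicate 1 and anti-PD-L1 replicate 2. Of the 34 list medians, 16 changed sign without media replicate 2, 3 without media replicate 1, 4 with the GC offset and 2 with library totals. The median of all genes was -0.10 with a filter of 1 CPM in 4 libraries.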

Other observations

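Gene groups outside the main account held 0 edgeR calls with the filter on low counts. DESeq2 called 1 tubulin, 2 ribosomal protein, 1 cholesterol synthesis, 2 p53 target and 1 dendritic cell gene higher. Over all genes it called 3.62% higher. With no filter on low counts edgeR called 4 ribosomal protein, 3 p53 target, 3 epithelial and 2 cholesterol synthesis genes higher. It also called 1 tubulin, 1 dendritic cell and 1 adipocyte gene higher, and 1 p53 target and 1 dendritic cell gene lower. In that setting 1031 of the 33123 genes tested were called higher and 1.18% lower. Of 13 tubulin isotypes, 12 had a positive difference (median 0.47, and 0.02 with the GC offset), and Tubb6 was at 482 and 434 CPM with anti-PD-L1, against 61.2 and 186 CPM in media. Among 20 cytosolic ribosomal protein genes the median was -0.04, while Rplp2, a stalk protein of the large subunit, was at 163 and 158 CPM with anti-PD-L1, against 5.17 and 14.5 CPM in media. Of 16 cholesterol synthesis genes, Srebf2, the master regulator of the pathway, was at 190 and 212 CPM with anti-PD-L1, against 64.6 and 77.5 CPM in media (1.503 ± 0.35; edgeR adjusted p = 0.0515). The 15 p53 target genes had a median of -0.07. B-cell markers summed to 2.69 and 9.01 CPM with anti-PD-L1 and to 2.01 and 23.5 CPM in media. Dendritic cell markers summed to 164 and 189 CPM with anti-PD-L1 and to 28.2 and 102 CPM in media, over 13 markers. Of these 13, 5 had a positive and 8 a negative difference (median -0.14, and -0.45 with the GC offset). Adipocyte markers summed to 25.2 and 34.8 CPM with anti-PD-L1 and to 62.5 and 10.5 CPM in media. Epithelial tumour markers summed to 4742 and 5415 CPM with anti-PD-L1 and to 2862 and 5199 CPM in media.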
